A study of Mus musculus with 6 samples.

Results

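The genes described here are the EGF family ligands Ereg, Areg, Hbegf, Tgfa, Btc and Nrg1, the ERBB receptors Egfr, Erbb2 and Erbb3, and Errfi1, an inhibitor of the receptors, in serum-starved NIH3T3 cells. They were chosen by symbol: 9 of the 10 names stand among the 16000 genes of the count table, and Tgfa was not analysed here. Of these 9, Areg had too few counts to be tested, so 8 of the 11972 genes tested are members. NIH3T3 is an established line of mouse embryonic fibroblasts. RNA was compared between 3 libraries labelled RAI16 knockout (KO) and 3 libraries labelled wild type (WT), and all 6 came from cells starved of serum. Neither the lesion behind the knockout nor the origin of the replicates (cultures or clones) is given in the labels, so the p-values reflect library-to-library spread alone, and that may be technical.

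EGF family ligands are made as membrane-anchored precursors and released by proteases of the ADAM family. Epiregulin (Ereg), amphiregulin (Areg), heparin-binding EGF (Hbegf), TGF-alpha (Tgfa) and betacellulin (Btc) bind EGFR, some of them also ERBB4, whereas neuregulin 1 (Nrg1) binds ERBB3 and ERBB4. Bound receptors pair and switch on the RAS-ERK and PI3K pathways. ERBB2 has no known ligand of its own and acts as a partner, ERBB3 has little kinase activity, and the ERRFI1 protein (MIG6) binds the kinase domain of EGFR and blocks it. In fibroblasts serum growth factors and ERK activity switch on several of these ligand genes and Errfi1.

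Library totals were 18368760, 18174473 and 17805417 counts for KO replicates 1 to 3 and 17388612, 16741607 and 17482451 for WT replicates 1 to 3. RAI16 is listed as Fam160b2, which had 410, 394 and 390 counts in the KO libraries, against 440, 375 and 411 in the WT libraries (log2 difference −0.12 ± 0.075 SE, adjusted p = 0.184, edgeR). A count over the whole gene does not check a small lesion, so KO and WT below are the labels' names. KO replicate 2 stood apart from the other KO libraries on the second principal component (score −23.3, against 12.05 and 12.2 for KO replicates 1 and 3). All 10 fibroblast markers checked were detected and summed to between 21091 and 24139 CPM in KO and between 27201 and 27725 CPM in WT. They went both ways, with 4 called higher, 4 called lower and a median log2 fold change of 0.01: Fn1 lay at 9196 CPM in KO and 13984 CPM in WT, Col1a2 at 3907 CPM in KO and 2723 CPM in WT, and Vim at 3220 CPM in KO and 2280 CPM in WT. For Fn1, KO replicate 2 stood low, at 6946 CPM, against 10219 and 10422 CPM in KO replicates 1 and 3. The 6 of 12 epithelial markers listed summed to between 4.67 and 5.94 CPM in KO and between 2.04 and 2.53 CPM in WT, where Cldn4 and Esrp1 were at 0. Sums of 8 leukocyte markers ran from 20.4 to 26.5 CPM in KO and from 25.3 to 26.4 CPM in WT, mostly Cd14. Of the 3 leukocyte markers tested, Cd14 was called lower (log2 fold change −0.45), and Cd68 (0.51) and Csf1r (2.20) were called higher. Sums of 9 endothelial markers ran from 25.8 to 29.1 CPM in KO and from 7.99 to 9.42 CPM in WT, mostly Flt1. In bulk RNA, fewer cells of a type and less RNA per cell cannot be told apart.

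Knockout cells had less transcript of both a major and a minor EGFR ligand, of 2 receptors and of the receptor inhibitor, and more of Erbb2. Ereg, Btc, Egfr, Erbb3 and Errfi1 were lower in KO, Erbb2 was higher, and Hbegf and Nrg1 did not pass the test. Calls rest on edgeR's quasi-likelihood test, with p-values adjusted by Benjamini-Hochberg across the whole table and a threshold of 0.05. So 1 of 8 members was called higher, beside 30.5% of all genes tested, and 5 of 8 were called lower, beside 29.2%. Their median log2 fold change of KO over WT was −0.52, and that of all genes tested was 0.0028. Btc and Erbb3 were lower by 2-fold or more, as were 6.53% of all genes. None rose by 2-fold or more, as 4.32% of all genes did. In 7 of the 8 the libraries of the groups did not overlap in CPM, as in 67.6% of all genes tested. KO lay below WT in 6 of them and above it in 1, against 33.5% and 34.1% of all genes. The members were chosen with earlier results of these data known, so these counts and the median are a description.

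**Figure D1:**
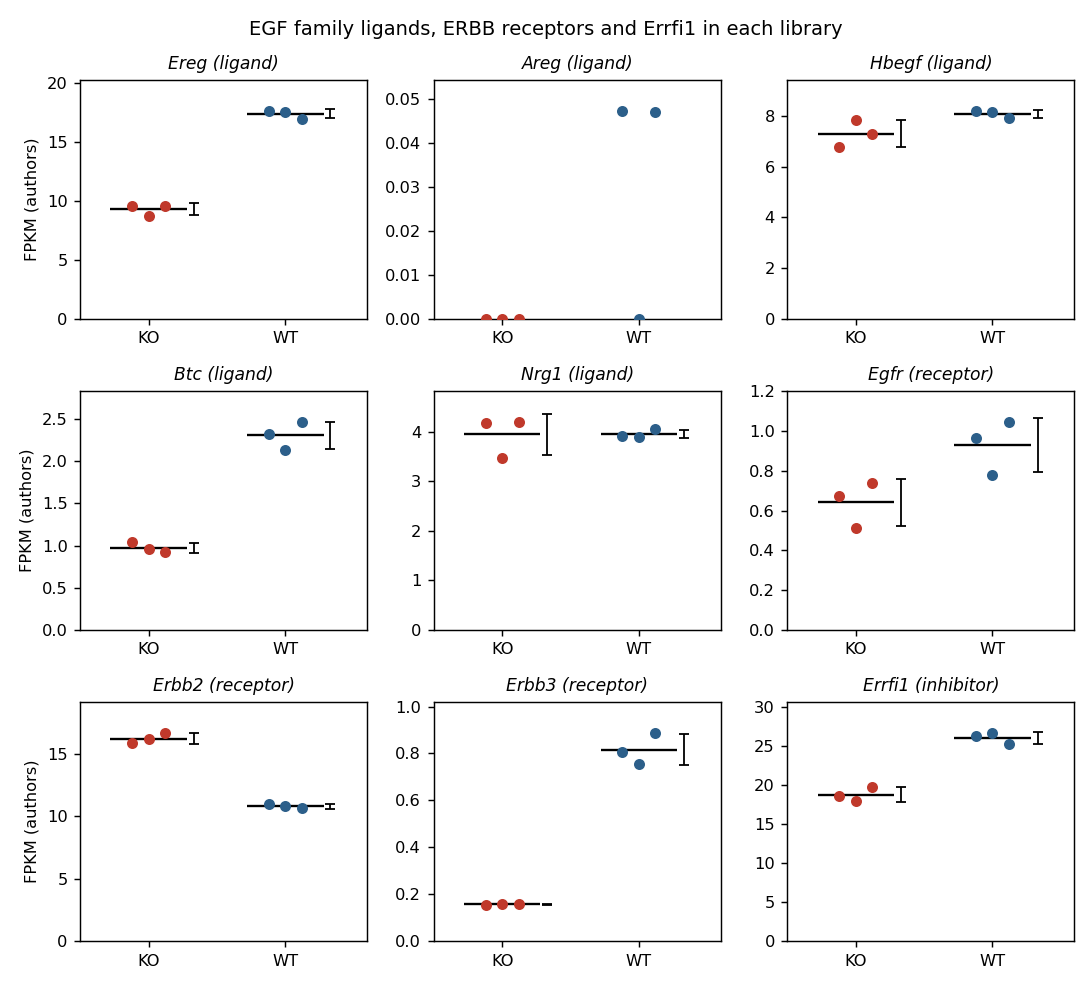
FPKM of each listed member in every library, with KO (red) left of WT (blue). Points are libraries, horizontal lines group means and bars the SD (n = 3 each, not drawn for Areg, which has only 2 counts in all), each panel on its own axis from 0; Erbb2 lies higher in KO (16.2 FPKM, against 10.8 FPKM in WT), and Ereg, Btc, Egfr, Erbb3 and Errfi1 lie lower.

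Epiregulin was the best represented EGFR ligand in both groups and fell in KO. On the FPKM scale, which corrects for gene length and is the authors' own, Ereg (gene number 13874) lay at 9.60, 8.74 and 9.59 in KO replicates 1 to 3, against 17.7, 17.6 and 16.96 in WT replicates 1 to 3. Every KO library lay below every WT library, and KO replicate 2 was the lowest. In CPM, counts per TMM-scaled library brought to a common total, Ereg averaged 38.4 ± 2.23 in KO and 72.3 ± 1.63 in WT (SD, n = 3 each). Its log2 fold change was −0.91 ± 0.063 (SE; 95% interval −1.06 to −0.77; adjusted p = 4.28e-06, edgeR), and 12.9% of the genes tested changed by more.

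Betacellulin, a ligand of EGFR and ERBB4, also fell, at a far lower level. Btc (12223) had 55, 50 and 47 counts in KO libraries, against 116, 103 and 124 in WT libraries. This came to 1.04, 0.957 and 0.918 FPKM in KO, against 2.32, 2.14 and 2.47 FPKM in WT. The groups stood well apart, and the KO libraries lay close together. The log2 fold change was −1.26 ± 0.14 (SE; adjusted p = 6.66e-05, edgeR). Ereg and Btc are neighbours on the chromosome, with Areg between them. Of the 20 tested genes nearest to Ereg, 6 rose and 8 fell, and their median log2 fold change was −0.02; Btc is itself one of these 20 and of the 8. Over the whole genome, the medians of runs of 20 neighbouring genes lay between −0.49 and 0.39 from the 5th to the 95th percentile.

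Heparin-binding EGF came second among the EGFR ligands and was not called. Hbegf (15200) lay at 6.78, 7.83 and 7.31 FPKM in KO and at 8.21, 8.17 and 7.92 FPKM in WT. The groups did not overlap, but KO replicate 2 came close to the WT libraries. On the log2 scale KO differed from WT by −0.16 ± 0.081 (SE; 95% interval −0.34 to 0.02; adjusted p = 0.116, edgeR). Without KO replicate 2 Hbegf passed, at −0.21 and an adjusted p of 0.0333. Among the 20 tested genes around it 1 was higher and 10 were lower, and their median of −0.26 lay below the value of Hbegf.

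Neuregulin 1, the ligand of ERBB3 and ERBB4, showed no called difference. Nrg1 (211323) had 1753, 1442 and 1709 counts in KO libraries, against 1557, 1493 and 1622 in WT libraries. In CPM it averaged 90.0 ± 9.89 in KO and 90.9 ± 2.0 in WT (SD, n = 3 each). KO replicate 2 was the lowest of the 6 libraries at 78.6 CPM, and KO replicates 1 and 3, at 95.1 and 96.2 CPM, were the highest. The log2 fold change of −0.01 ± 0.082 (SE; 95% interval −0.20 to 0.17; adjusted p = 0.887, edgeR) turned to 0.07 without KO replicate 2 and to 0.0036 without WT replicate 3, neither of which passed. Its 20 tested neighbours had a median of 0.20, with 9 higher and 4 lower.

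Amphiregulin transcript was at or under the limit of detection in both groups. Areg (11839) had 0 counts in each KO library, and in the WT libraries 1, 0 and 1 counts. A count of 0 over the KO libraries allows up to 3 counts, or 0.0550 CPM. The WT libraries had 2 counts in all, also fewer than 3, so no fold change is given.

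The promoter of Areg is shown because the gene is nearly silent between 2 expressed ligand genes, that of Errfi1 because it shares a motif with Areg while being well expressed, and that of Erbb2 because it is the member that rose. The sequences are RefSeq's on build GRCm38.p6, from 250 bases before to 50 bases after the transcript start, read 5′ to 3′ on the gene's strand. The submitters' processing notes name GRCm39 for the tables, so these coordinates apply to GRCm38.p6 alone. Areg lies at chr5:91139349-91139648 (+ strand), the downstream of 2 start sites of Errfi1 at chr4:150854820-150855119 (+ strand) and Erbb2 at chr11:98412234-98412533 (+ strand). Capitals mark the cAMP response element TGACGTCA.
Areg: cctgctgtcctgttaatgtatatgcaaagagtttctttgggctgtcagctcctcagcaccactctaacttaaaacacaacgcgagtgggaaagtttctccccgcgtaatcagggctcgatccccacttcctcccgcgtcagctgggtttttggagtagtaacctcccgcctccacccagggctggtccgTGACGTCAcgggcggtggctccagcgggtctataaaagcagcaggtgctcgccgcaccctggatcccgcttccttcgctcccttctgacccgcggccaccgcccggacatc
Errfi1: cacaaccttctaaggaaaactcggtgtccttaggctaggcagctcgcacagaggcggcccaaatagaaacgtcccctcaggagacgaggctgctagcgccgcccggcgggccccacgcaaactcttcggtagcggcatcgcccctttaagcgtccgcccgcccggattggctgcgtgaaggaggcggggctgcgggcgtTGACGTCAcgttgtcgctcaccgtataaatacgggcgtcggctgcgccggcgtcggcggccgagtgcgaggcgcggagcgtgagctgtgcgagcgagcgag
Erbb2: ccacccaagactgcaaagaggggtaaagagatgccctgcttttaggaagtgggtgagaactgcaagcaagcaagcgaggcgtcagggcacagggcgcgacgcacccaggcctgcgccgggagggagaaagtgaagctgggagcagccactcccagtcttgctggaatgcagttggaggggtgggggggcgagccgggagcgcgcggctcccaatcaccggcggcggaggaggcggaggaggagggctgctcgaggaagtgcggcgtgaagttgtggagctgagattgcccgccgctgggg

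The cAMP response element, the site that CREB proteins bind, starts 61 bases before the Areg start and 51 bases before the downstream Errfi1 start. Promoter sequences of Areg, Btc, Egfr, Erbb2 and Errfi1, 5 of the 9 listed members, were searched on both strands. Beside TGACGTCA the search covered the AP-1 motif TGACTCA (or its reverse complement TGAGTCA), the ETS motif CGGAAGT and the serum response motif CArG. TGACGTCA was in 1.79% of 32851 promoter windows of the same length, AP-1 in 5.20%, CArG in 1.63% and ETS in 6.42%. No other match was found in the windows of these 5 genes. A match is letters in a window and not evidence of a bound site.

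The receptor side was dominated by Erbb2, which was also the member that rose. Erbb2 (13866) lay at 15.9, 16.2 and 16.7 FPKM in KO libraries, against 11.0, 10.8 and 10.6 FPKM in WT libraries. All KO libraries lay above all WT libraries, with little spread in either group. In CPM it averaged 80.9 ± 2.37 in KO and 54.3 ± 0.949 in WT (SD, n = 3 each). On the log2 scale it rose by 0.58 ± 0.055 (SE; adjusted p = 2.92e-05, edgeR). Its 20 tested neighbours on the chromosome, which include Pgap3, Mien1 and Stard3, split into 6 higher and 3 lower, with a median of −0.02.

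Erbb3, the partner receptor for neuregulins, changed most among the members. It (13867) had 17 counts in each KO library, against 84, 76 and 93 counts in WT libraries. In FPKM this was 0.154, 0.156 and 0.159 in KO, against 0.805, 0.757 and 0.887 in WT. The groups were far apart, although the level was low in both. The log2 fold change was −2.39 ± 0.18 (SE; adjusted p = 7.76e-06, edgeR), a 5.23-fold lower level in KO, and 2.88% of the genes tested changed by more. On the log2(FPKM + 1) scale of limma, which understates low genes, the change came to −0.65 for Erbb3, −0.75 for Btc and −0.23 for Egfr. The 20 neighbours of Erbb3 had a median of 0.16, with 9 higher and 3 lower.

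Erbb3 is known from Schwann cells and epithelia, and the summed level of neural and glial markers was lower in KO too. Map2, a neuronal microtubule protein gene, lay at 1.91 ± 0.594 CPM in KO and 13.1 ± 1.43 CPM in WT (SD, n = 3 each). The 6 of 9 such markers listed summed to between 3.43 and 4.61 CPM in KO and between 18.5 and 20.7 CPM in WT. Sox10, a marker of Schwann cells but not of them alone, had 0 counts in every KO library and 0, 1 and 0 in WT libraries. Cdh1, an epithelial marker, had 6, 7 and 7 counts in KO libraries and 12, 7 and 13 in WT libraries. Krt8, a keratin gene and the only epithelial marker tested, went the other way, at 4.35 ± 0.480 CPM in KO and 1.05 ± 0.234 CPM in WT (SD, n = 3 each; log2 fold change 2.04 ± 0.22 SE, adjusted p = 5.31e-05, edgeR). Cdh1, Krt8 and Sox10 were picked with their values in view. The part of these markers in the value of Erbb3 was not tested.

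Egfr, the receptor of most of these ligands, was lowly expressed and fell modestly. Egfr (13649) had 106, 80 and 113 counts in KO libraries, against 144, 112 and 157 counts in WT libraries. In FPKM this was 0.672, 0.512 and 0.739 in KO, against 0.964, 0.779 and 1.05 in WT. The highest KO library lay just under the lowest WT library, so the groups were adjacent rather than far apart. The log2 fold change was −0.55 ± 0.17 (SE; 95% interval −0.93 to −0.16; adjusted p = 0.0204, edgeR). The call was lost without WT replicate 1 (−0.52, adjusted p = 0.0669) and without WT replicate 3 (−0.46, adjusted p = 0.0858). KO replicate 2 was the lowest library, and without it the change shrank to −0.41 but was still called (adjusted p = 0.0115, edgeR). The 20 tested neighbours of Egfr had a median of −0.05, with 4 higher and 6 lower.

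Errfi1, the feedback inhibitor of EGFR, had the highest FPKM of the family and fell in KO. It (74155) lay at 18.6, 17.9 and 19.7 FPKM in KO libraries, against 26.3, 26.6 and 25.2 FPKM in WT libraries. The groups did not overlap. In CPM it averaged 62.8 ± 3.42 in KO and 87.8 ± 2.54 in WT (SD, n = 3 each). On the log2 scale it fell by 0.48 ± 0.061 (SE; adjusted p = 0.000165, edgeR). Its 20 neighbours had a median log2 fold change of 0.04.

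**Figure D2:**
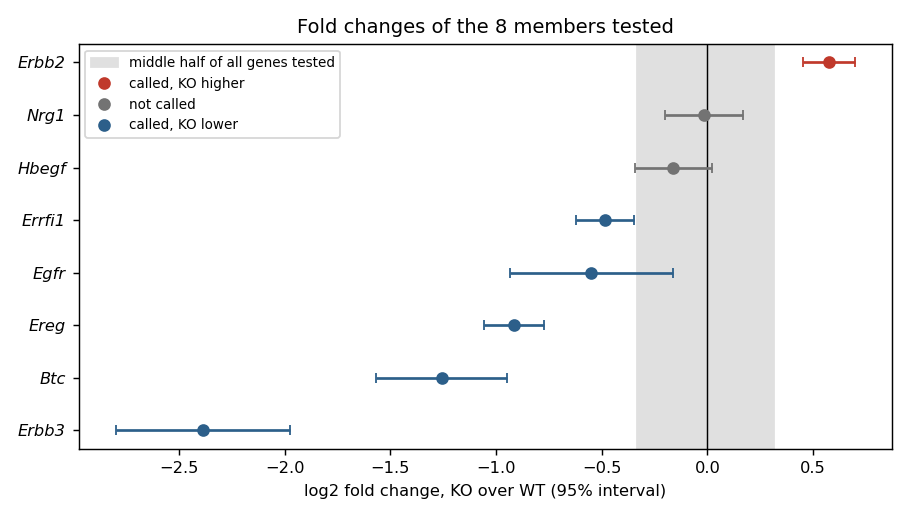
Log2 fold change of KO over WT for the 8 members tested, with 95% intervals from edgeR's quasi-likelihood test. The grey band spans the interquartile range of all genes tested; Erbb2 lies above 0, the intervals of Nrg1 and Hbegf include 0, and Erbb3 lies lowest at −2.39.

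Per length, the family kept nearly the same order in both groups. In KO the FPKM means ran Errfi1 (18.8), Erbb2 (16.2), Ereg (9.31), Hbegf (7.31), Nrg1 (3.95), Btc (0.972), Egfr (0.641) and Erbb3 (0.156). In WT they ran Errfi1 (26.03), Ereg (17.4), Erbb2 (10.8), Hbegf (8.10), Nrg1 (3.96), Btc (2.31), Egfr (0.929) and Erbb3 (0.816). Ereg and Erbb2 thus stood in opposite order in KO and WT. In the KO libraries no neighbours in this order overlapped in FPKM, and in the WT libraries Egfr and Erbb3 did. The place of Nrg1 depends on the length assigned to it. The deposited FPKM values use 22847 bases for Nrg1, while its longest coding transcript in GENCODE M21 has 5415 bases; for the other members the 2 lengths lay far closer. With the longest coding transcript as the length, Nrg1 came to 16.7 ± 1.75 in KO, where it overlapped Erbb2, and to 16.7 ± 0.366 in WT, where it overlapped Ereg (SD, n = 3 each; a length chosen after seeing the data).

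The composition of ligands and receptors therefore differed between the groups in ways that follow from the single genes. FPKM of the EGFR ligands Ereg, Areg, Hbegf and Btc summed to 17.6 ± 0.202 in KO and 27.8 ± 0.425 in WT (SD, n = 3 each). Ereg made up 52.9% ± 2.72 of that sum in KO and 62.5% ± 0.582 in WT, Hbegf 41.5% ± 2.90 in KO and 29.1% ± 0.177 in WT, and Btc 5.53% ± 0.416 in KO and 8.29% ± 0.674 in WT. FPKM of the 3 receptors summed to 17.04 ± 0.472 in KO and 12.6 ± 0.221 in WT, and Erbb2 made up 95.3% ± 0.619 of it in KO and 86.1% ± 1.46 in WT. Erbb2 stood 25.9 ± 4.93 times as high as Egfr in KO and 11.8 ± 1.88 times in WT, and 104 ± 0.988 times as high as Erbb3 in KO and 13.3 ± 1.18 times in WT. These are sums and ratios of the values above and were not tested. Erbb3 had 17 counts in each KO library, so the SD of 0.988 does not cover the counting error of its ratio.

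**Figure D3:**
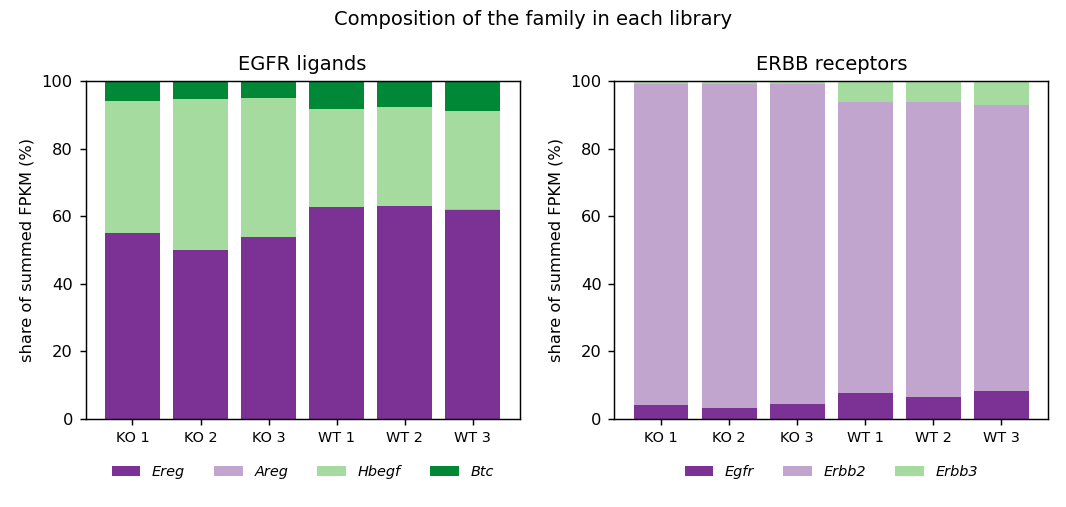
Share of summed FPKM taken by each EGFR ligand (left) and each ERBB receptor (right) in every library, KO libraries left of WT libraries. Ereg takes 52.9% of the ligand sum in KO and 62.5% in WT, and Erbb2 takes 95.3% of the receptor sum in KO and 86.1% in WT.

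Other genes followed single members closely over the 6 libraries. Closeness was the Euclidean distance between log2 CPM profiles, each centred on its own mean, among 10328 other genes that averaged 5 CPM or more; it mostly reflects the difference between the groups. Nearest to Ereg were the kinase gene Stk24 (distance 0.0625), Dpy19l1 (0.0654) and the clock gene Arntl (0.0677), with log2 fold changes of −0.91, −0.91 and −0.92. Nearest to Erbb2 were Cc2d1a (0.0528), the tetraspanin gene Cd81 (0.0533) and the dynein adaptor gene Hook2 (0.0548), at 0.56 each. Profiles near Egfr were less close, with Card6 at 0.145, the phosphofructokinase regulator gene Pfkfb2 at 0.173 and Cntln at 0.184.

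The rest of the EGF family was scarcely represented. Of Egf, Epgn, Nrg2, Nrg3, Nrg4 and Erbb4, 3 were listed and 1 was tested. Egf averaged 1.54 ± 0.708 CPM in KO and 1.85 ± 0.156 CPM in WT (SD, n = 3 each; log2 fold change −0.26 ± 0.31 SE, adjusted p = 0.492, edgeR). Epgn, the gene of epigen, had 2, 9 and 2 counts in KO libraries and 9, 4 and 0 in WT libraries, so neither group was uniform. Nrg4 had 0 counts in every KO library and 2, 0 and 2 in WT libraries. Nrg2, Nrg3 and Erbb4 were not analysed here.

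Genes of ligand shedding, which are ADAM proteases, iRhoms and their partner Frmd8, and the ADAM inhibitor Timp3, moved in both directions. Of 11 tested, 4 rose and 5 fell, beside 30.5% and 29.2% of all genes tested, and the median log2 fold change was −0.09. Timp3 was among the 5 that fell, by 0.57 ± 0.072 (SE) on the log2 scale. Adam17, the main sheddase of Ereg, Areg, Hbegf and Tgfa, had 120, 112 and 128 CPM in KO libraries, against 169, 174 and 169 CPM in WT libraries, and fell by 0.51 ± 0.064 on the log2 scale (SE; adjusted p = 0.000149, edgeR). Adam10, the main sheddase of Btc, fell by 0.23 ± 0.074 (adjusted p = 0.0231). Rhbdf2, whose product iRhom2 carries ADAM17 to the cell surface, rose by 1.04 ± 0.068, at 46.6 ± 1.65 CPM in KO and 22.7 ± 1.13 CPM in WT (SD, n = 3 each). Adam8 and Adam19 fell by 1.12 ± 0.20 and 0.58 ± 0.086 on the log2 scale. Adam10, Adam17 and Timp3 were named for their known role after their values were seen.

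Signalling genes next to the receptors were called in either direction at shares near those of all genes. Of 20 genes of adaptors and the RAS-ERK cascade 6 rose and 6 fell, beside 30.5% and 29.2% of all genes tested (median −0.08). Rasa1, a GTPase-activating protein that turns RAS off, fell by 0.87 ± 0.065 (SE), and Sos1, an exchange factor that turns RAS on, fell by 0.63 ± 0.13 on the log2 scale. For Sos1, KO replicate 2 stood low, at 60.6 CPM, against 88.7 and 86.7 CPM in KO replicates 1 and 3. WT libraries had 122, 131 and 113 CPM. The adaptor gene Shc1 rose by 0.54 ± 0.057, at 268 ± 4.01 CPM in KO and 184 ± 8.54 CPM in WT (SD, n = 3 each). Of 17 genes of the PI3K, PLC, STAT and SRC branches 6 rose and 6 fell as well, against the same 30.5% and 29.2% (median 0.0056). The PI3K catalytic subunit gene Pik3cb fell by 1.20 ± 0.065, at 34.8 ± 1.93 CPM in KO and 80.1 ± 3.06 CPM in WT. The exchange factor gene Vav2 and the PI3K regulatory subunit gene Pik3r2 rose by 0.89 ± 0.076 and 0.75 ± 0.056.

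Of 17 genes of receptor turnover and inhibition, 2 rose and 5 fell, a share of calls below that of all genes (41.2% against 59.6%). Without KO replicate 2 the count was 7 higher and 7 lower, beside 36.1% and 35.1% of all genes, and the median was −0.0083 in place of −0.11. Socs5, an inhibitor that targets EGFR for degradation, fell by 0.44 ± 0.060 (SE), and Epn1 and Stam, of endocytosis and receptor sorting, fell by 0.36 ± 0.067 and 0.31 ± 0.079 on the log2 scale. Cbl, the ubiquitin ligase of EGFR, named after its values were seen, had 102, 58.3 and 100 CPM in KO libraries and 97.1, 105 and 103 CPM in WT libraries. KO replicate 2 alone stood low for Cbl.

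Transcripts that ERK signalling is known to switch on were mostly lower in KO. Of 16 tested, 13 fell and 1 rose, beside 29.2% and 30.5% of all genes, with a median log2 fold change of −0.52. Without KO replicate 2, 14 fell and 1 rose, beside 35.1% and 36.1% of all genes. The list was chosen with falls among these genes already known, so the count is a description. The ERK phosphatase gene Dusp4 had 56.1, 44.1 and 57.3 CPM in KO libraries, against 118, 128 and 120 CPM in WT libraries, and fell by 1.22 ± 0.097 (SE; adjusted p = 1.03e-05, edgeR). The ETS factor gene Etv5 fell by 0.83 ± 0.081, at 58.6 ± 6.36 CPM in KO and 104 ± 2.74 CPM in WT (SD, n = 3 each), and the early transcription factor gene Egr1 fell by 0.83 ± 0.055. Dusp5, another ERK phosphatase gene and the only member of the list that rose, named after its value was seen, lay at 24.3 ± 0.739 CPM in KO and 18.7 ± 1.78 CPM in WT (log2 fold change 0.38 ± 0.086 SE, adjusted p = 0.00457, edgeR). Fos and Ier3 did not pass.

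**Figure D4:**
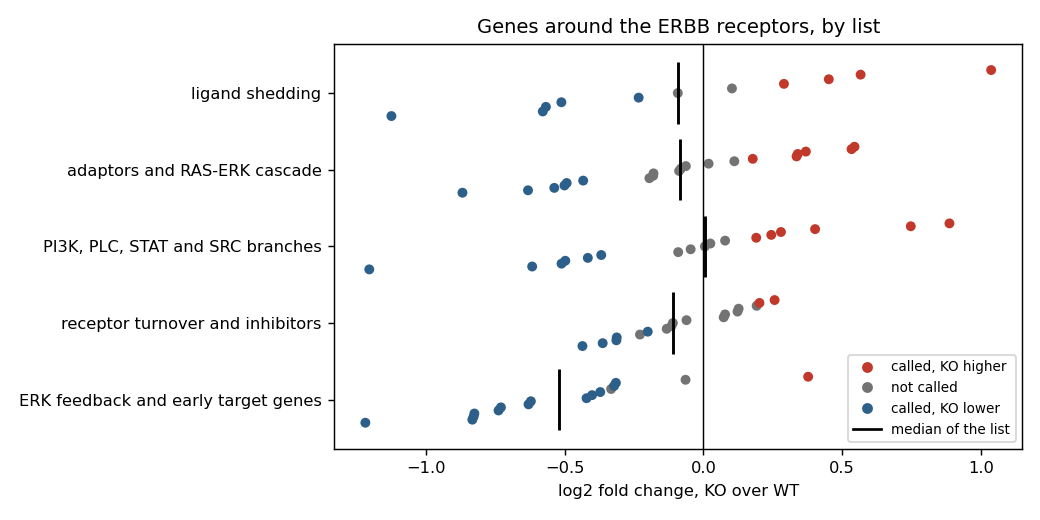
Log2 fold change of KO over WT for each tested gene of the 5 lists around the receptors, coloured by call, with the median of each list as a black line. Genes of ERK feedback and early targets lie mostly left of 0 (median −0.52), and medians of the other lists lie between −0.11 and 0.0056.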

How the data were processed

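Messenger RNA libraries of 3 KO and 3 WT samples were made with a strand-marking kit, per the labels' protocols. The authors deposited raw counts per gene and FPKM for the same genes. Trimmomatic, HISAT2, Cufflinks, HTSeq and DESeq, on build GRCm39, are named in the submitters' processing notes. No source used here gives versions, annotation or the strand setting, so reads of overlapping antisense genes may be included. The deposited FPKM equals the count over the library total and 1 length per gene, within 8.04e-05%, which gave the lengths quoted. No columns belonged to other samples.

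Genes were kept with filterByExpr (11972), scaled by TMM and tested with edgeR 4.0.16 (R 4.3.3), KO against WT, adjusted over all genes tested. The SE is the log2 fold change over the square root of F. Limits on counts of 0 cover counting error only. Alternatives were DESeq2 1.42.0, its size factors, no filter, limma 3.58.1 on log2(FPKM + 0.1) and log2(FPKM + 1), leaving out each library, and a replicate block. Neighbouring genes were ordered by RefSeq's GRCm38.p6 table, in which 11941 tested genes were matched by gene number.

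The members and lists were chosen with earlier results of these data known. Named genes are the members, the 3 called genes with the largest fold change in each pathway list with a mean of at least 5 CPM, up to 3 markers a list above that level, and the 3 genes nearest in profile to each of 3 members.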

Additional observations from a re-analysis of the deposited data

How the results depend on the processing

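Erbb2 stayed higher and Ereg, Btc, Erbb3 and Errfi1 stayed lower, all called, under each of the 12 alternatives. Their log2 fold changes ran from 0.55 to 0.59 for Erbb2, −0.94 to −0.84 for Ereg, −0.53 to −0.45 for Errfi1, −1.31 to −0.75 for Btc and −2.44 to −0.65 for Erbb3. The smallest changes of Btc and Erbb3 came from limma on log2(FPKM + 1), whose pseudocount exceeds or nears the level of both genes in KO. Egfr stayed lower, from −0.67 to −0.23, and was called in 10 of the 12; −0.23 came from the same limma setting. Leaving out 1 library at a time gave 4 to 6 members called lower and 6005 to 8531 genes called in all, the highest without KO replicate 2. Nrg1, from −0.0656 to 0.0738 with 1 library left out at a time, reversed sign without KO replicate 2 (0.0738) and without WT replicate 3 (0.0036), and Hbegf passed in 1 of 12. Deviations of same-numbered libraries from their group means correlated at −0.07, −0.09 and 0.02, and those of differently numbered libraries at −0.08 to 0.11. With 3 libraries in each group, these values cannot show whether libraries of the same number shared a batch. With a replicate block 1 member was called higher, 5 lower and 6692 genes in all, and it changed no call of a member. Genes of the pathway lists called, 54 in all, ran from 47 to 68 without 1 library, an alternative chosen after seeing the data. With FPKM rescaled to a common total, 1 pair of neighbours in the KO order overlapped (Errfi1 and Erbb2). With the length of the longest coding transcript, Nrg1 ranked 2 in KO and 3 in WT and Ereg ranked 4 in KO. Erbb3 then stood above Egfr in WT, at means of 0.814 and 0.782, and their libraries still overlapped. The low counts of Erbb3, Btc and Egfr limit their precision.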
